A study of Mus musculus with 15 samples.

Results

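Cells sorted as GFP- on day 13 of a smooth muscle differentiation were compared with the Kdr+ cells sorted on day 5 of the same protocol, over all 25206 probe sets of a mouse gene expression array. The comparison rests on 6 of the 15 samples, chosen by their labels: the 3 day 13 GFP- samples and the 3 day 5 Kdr+ samples, numbered 3, 5 and 6 in each group. Both groups descend from a mouse induced pluripotent stem cell (iPSC) line that carries the Acta2hrGFP reporter, in which a green fluorescent protein reports on the smooth muscle actin gene Acta2. Day 5 cells had been sorted for the mesodermal receptor Kdr, also called Flk-1, and day 13 cells had been sorted as candidate smooth muscle cells without reporter fluorescence. The series also holds 3 undifferentiated day 0 iPSC samples, 3 day 13 GFP+ samples with the same numbers and 3 samples of primary aortic GFP+ cells. Day 0 and GFP+ values are given beside the GFP- values where they place a change, and the aortic samples served here only for the estimate of spread. The labels call the triplicates biological and do not say whether separate cultures, sorts or iPSC clones stand behind them. The p-values thus measure only the spread between samples within a group. That spread was estimated over all 5 groups together, not from the groups compared alone. No sample of Kdr- day 5 cells was analysed here, so the Kdr sort itself could not be checked.

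In the embryo, Kdr marks early mesoderm that has left the primitive streak under Wnt, Nodal, BMP and FGF signals and that can form blood, endothelium, heart and smooth muscle. Smooth muscle identity is built by serum response factor and its cofactor myocardin, which bind CArG boxes in the promoters of contractile genes, and TGF-beta signals raise both the contractile genes and the matrix that these cells secrete.

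Expression was measured as deposited log2 values after robust multi-array averaging (RMA), and 1 log2 unit is a factor of 2. The medians of the 6 samples lay between 4.08 and 4.23, and their values ran from 0.66 to 12.44. The files hold no presence calls, so a value near or below these medians is not shown to lie above background. In the text, values are given in the order of samples 3, 5 and 6. A difference is GFP- minus day 5 on the log2 scale with the standard error (SE) of the limma fit after ±, followed by the fold and the Benjamini-Hochberg adjusted p over all probe sets. In sorted bulk samples, fewer cells of a type and less RNA per cell cannot be told apart.

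Of all probe sets, 26% passed the threshold of 0.05 on the adjusted p (6542 probe sets), with 3036 higher (12%) and 3506 lower (13.9%) in day 13 GFP- cells. Counts of list members that rose or fell, given below, stand beside these shares. Rises were the larger changes: 1421 probe sets rose and 1154 fell at least 2-fold, 116 rose and 30 fell at least 8-fold, and 31 rose and 6 fell at least 16-fold. For 39.6% of probe sets, the GFP- and day 5 values were fully separate. The median difference over all probe sets was -0.028. Centring each sample on its median changed the split of calls to 2555 higher and 4392 lower. Across all probe sets, the day 5 samples correlated with each other at 0.993 to 0.995, the GFP- samples with each other at 0.977 to 0.995, and GFP- with day 5 samples at 0.942 to 0.944.

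**Figure D1:**
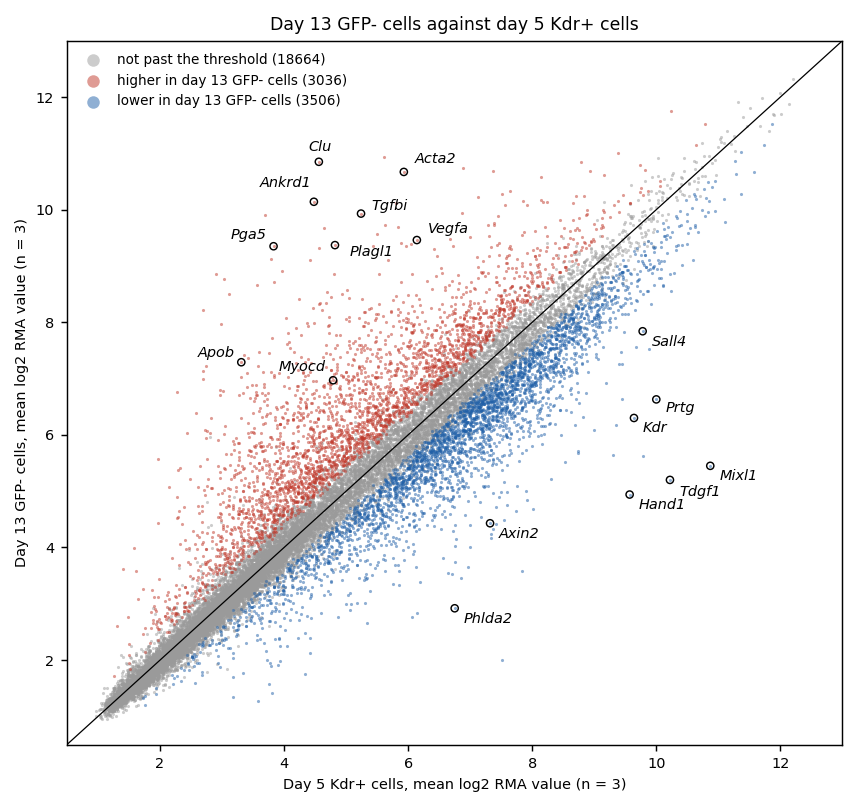
Mean log2 RMA value of each probe set in the 3 day 5 Kdr+ samples (x axis) and the 3 day 13 GFP- samples (y axis), with probe sets past an adjusted p of 0.05 in red (3036 higher) and blue (3506 lower), the others in grey, and the line of equal values. Clu, at 4.56 on day 5 and 10.85 in GFP- cells, lies farthest above the line, and Mixl1, at 10.87 and 5.45, lies farthest below it of the probe sets with a gene symbol.

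The sort genes were examined first. Kdr measured 9.69, 9.59 and 9.65 at day 5 and 6.72, 6.12 and 6.05 in GFP- samples, a log2 difference of -3.34 ± 0.19 (10.2-fold lower, adjusted p = 6.88e-09). All GFP- samples lay below all day 5 samples, and sample 3 was the highest of the GFP- samples. The day 5 cells had been selected for Kdr, so this fall is not independent of the sort. The GFP- level stayed above the day 0 mean of 3.24. Acta2, the gene behind the reporter, measured 5.44, 6.22 and 6.13 at day 5 and 10.16, 11 and 10.85 in GFP- samples, a log2 difference of 4.74 ± 0.23 (26.8-fold, adjusted p = 1.07e-09). The GFP- samples thus stood far above the day 5 samples although they had been sorted as GFP-, and they stood just under the GFP+ samples at 11.23, 11.47 and 11.27. The difference of GFP- from GFP+ in Acta2 was -0.65 and did not pass (adjusted p = 0.151), with a 95% confidence interval from -1.14 to -0.16 before adjustment.

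Contractile smooth muscle genes rose in GFP- cells. Of 19 measured members of that list, 15 rose and 0 fell, against the 12% and 13.9% of all probe sets above, and the values of 15 members did not overlap between the groups; the list's median difference was 1.16. Tagln, which encodes the actin-binding protein transgelin, measured 4.42, 5.05 and 4.53 at day 5 and 8.08, 8.54 and 8.44 in GFP- samples, a log2 difference of 3.69 ± 0.17 (12.9-fold, adjusted p = 5.36e-10). Des, the intermediate filament of muscle, measured 4.96, 3.99 and 4.18 at day 5 and 6.92, 7.04 and 7.27 in GFP- samples, a log2 difference of 2.7 ± 0.27 (6.49-fold, adjusted p = 1.99e-06). Myl9, the regulatory light chain of smooth muscle myosin, measured 5.92, 5.67 and 5.34 at day 5 and 7.67, 8.13 and 8.19 in GFP- samples, a log2 difference of 2.35 ± 0.19 (5.11-fold, adjusted p = 1.88e-07). In all 3 genes the lowest GFP- sample lay above the highest day 5 sample. Myocd, the myocardin gene, went from a day 5 mean of 4.79 to a GFP- mean of 6.97, a log2 difference of 2.18 ± 0.15 (4.52-fold, adjusted p = 3.24e-08). The other 4 members did not pass. Myh11, the smooth muscle myosin heavy chain, measured 4.02, 4.27 and 4.1 at day 5 and 4.3, 4.34 and 4.45 in GFP- samples, and its difference of 0.23 ± 0.15 had an adjusted p of 0.336. Mylk, the kinase of the myosin light chain, showed 0.3 ± 0.23 (adjusted p = 0.452), and Cnn1, which encodes calponin, 0.45 ± 0.25 (adjusted p = 0.225). Itga8, an integrin subunit of smooth muscle, missed the threshold with sample 3 included (0.89 ± 0.32, adjusted p = 0.0504) and passed it without GFP- sample 3 (1.32, adjusted p = 0.00104) or without day 5 sample 3 (1.17, adjusted p = 0.0164).

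Promoter sequence was looked at because the contractile genes moved together. A search of both strands for the CArG box, in windows from 250 bases before to 50 bases after each RefSeq start (GRCm38.p6), found it in 2 of the 15 contractile genes with a window (13.3%), in 2 of 15 immediate early genes (13.3%) and in 1.63% of all 32851 windows. The match in Myl9 is shown in capitals, from chr2:156775284-156775407 on the plus strand, and was picked for display because it holds the motif. A match is a description of letters, not of a bound site.
Myl9: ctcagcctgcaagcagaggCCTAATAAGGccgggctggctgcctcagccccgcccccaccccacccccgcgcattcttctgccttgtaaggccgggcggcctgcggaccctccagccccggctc

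The sort by GFP divided the contractile genes unevenly. Of the 19 members, 5 were lower and 1 was higher in GFP- than in GFP+ cells, against 2.02% and 2.52% of all probe sets in that comparison; with the sample number as a block, 4 were lower and 1 was higher. Tagln was -1.04 (adjusted p = 0.00167) and Myl9 -1.23 (adjusted p = 0.00124) relative to GFP+ cells. Myocd ran the other way: it measured 6.95, 7.09 and 6.87 in GFP- samples and 5.25, 5.81 and 5.54 in GFP+ samples, a difference of 1.44 (adjusted p = 3.34e-05). Every GFP- sample was above every GFP+ sample for Myocd. Of 10 mural and pericyte genes, 2 rose and 3 fell (Rgs5, Notch3 and Ndufa4l2), and 0 fell without GFP- sample 5, GFP- sample 6, day 5 sample 5 or day 5 sample 6, or after cyclic loess. Mcam, an adhesion receptor of mural and endothelial cells, rose from a day 5 mean of 5.05 to a GFP- mean of 8.43 (3.38 ± 0.12, 10.4-fold, adjusted p = 6.62e-11). Pdgfrb, the PDGF receptor of pericytes, measured 7.49, 7.9 and 7.73 at day 5 and 7.41, 7.51 and 7.57 in GFP- samples and did not pass (-0.21 ± 0.15, adjusted p = 0.415), while it stood -1.08 relative to GFP+ cells (adjusted p = 0.000719). The proteoglycan gene Cspg4 rose by 0.88 ± 0.19 (adjusted p = 0.00254) and remained -0.98 relative to GFP+ (adjusted p = 0.00781).

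**Figure D2:**
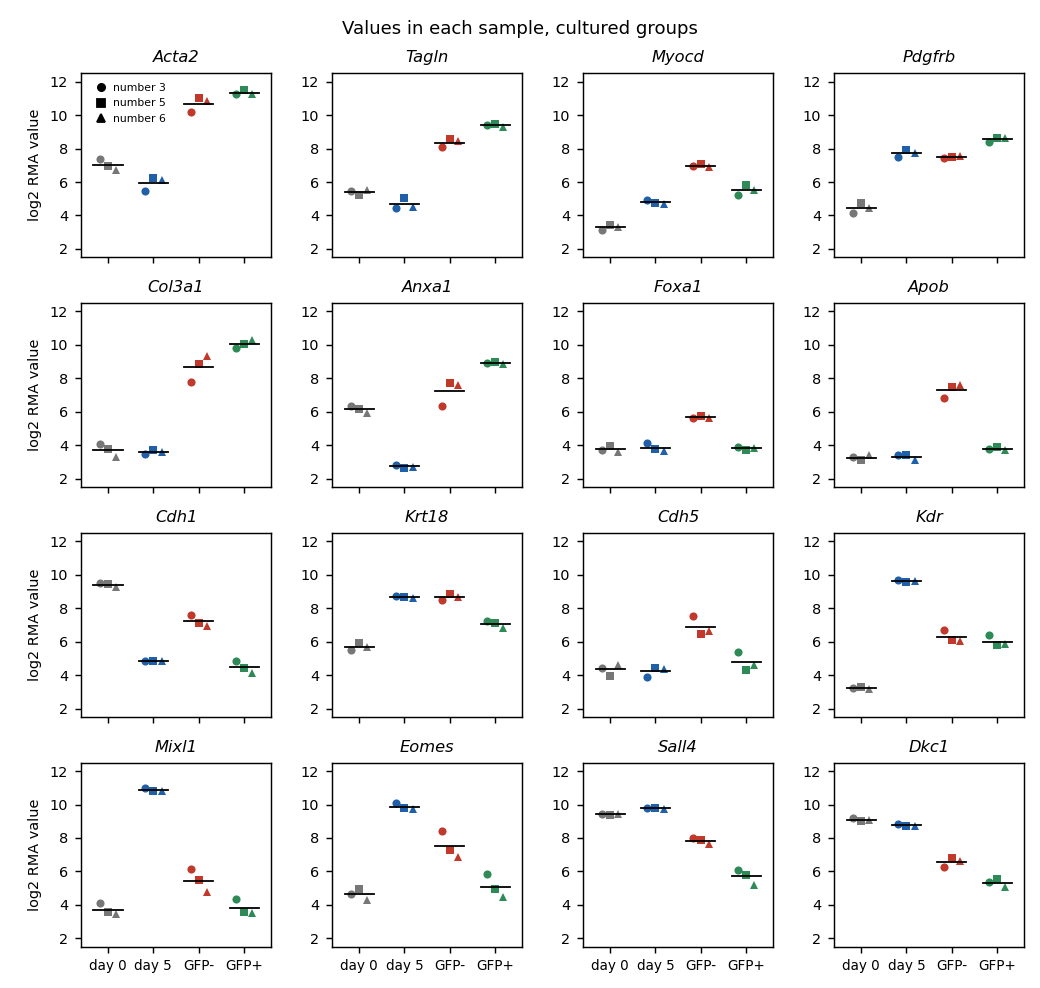
Log2 RMA value of 16 genes in each cultured sample (y axis) by group (x axis: day 0 iPSC, day 5 Kdr+, day 13 GFP- and day 13 GFP+; n = 3 a group), with marker shapes for the sample numbers 3, 5 and 6 and bars at the group means. Acta2 lay at 10.16, 11 and 10.85 in GFP- and 11.23, 11.47 and 11.27 in GFP+ samples, while Apob, Foxa1 and Cdh1 were high in GFP- samples alone of the day 5, GFP- and GFP+ groups.

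Genes of the extracellular matrix rose. Of 18 collagen chains measured, 15 rose and 0 fell, with a median difference of 1.88. Of 17 genes of elastic fibres and crosslinking, 12 rose and 1 fell (median 2.01), and of 14 matricellular proteins and proteoglycans, 12 rose and 0 fell (median 2.98). Col3a1, a fibrillar collagen of vessel walls, measured 3.45, 3.69 and 3.57 at day 5 and 7.81, 8.85 and 9.33 in GFP- samples, a log2 difference of 5.1 ± 0.28 (34.2-fold, adjusted p = 4.35e-09). Col1a1, the main chain of type I collagen, measured 4.94, 6.32 and 6.15 at day 5 and 9.31, 10.37 and 10.67 in GFP- samples, a log2 difference of 4.31 ± 0.34 (19.9-fold, adjusted p = 1.82e-07). Thbs1, which encodes the matricellular protein thrombospondin 1, measured 4.03, 3.68 and 3.67 at day 5 and 8.81, 9.42 and 9.16 in GFP- samples, a log2 difference of 5.34 ± 0.24 (40.5-fold, adjusted p = 5.6e-10). Day 5 and GFP- samples were far apart for all 3 genes. Tnc, which encodes tenascin C, rose from a day 5 mean of 4.64 to a GFP- mean of 9.68 (5.04 ± 0.2, 32.9-fold, adjusted p = 1.33e-10), and the small proteoglycan gene Bgn from a day 5 mean of 5.61 to a GFP- mean of 10.93 (5.32 ± 0.34, 40-fold, adjusted p = 2.03e-08). Among the crosslinking enzymes, Loxl1 rose by 2.69 ± 0.13 (adjusted p = 1.16e-09) and Loxl2 by 3.6 ± 0.28 (adjusted p = 1.39e-07). The elastic fibre gene Efemp1 was the exception, at 5.24, 5.12 and 4.73 at day 5 and 3.37, 3.81 and 3.67 in GFP- samples, a log2 difference of -1.41 ± 0.28 (2.66-fold lower, adjusted p = 0.00123). Fn1, the fibronectin gene, was already high on day 5 at 11.35, 11.21 and 11.25 and did not pass (-0.22 ± 0.12, adjusted p = 0.248).

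Basement membrane genes rose too: 8 of 11 laminin, nidogen and perlecan genes were higher and 0 were lower, with a median of 1.17. Nid1, which links laminin to collagen IV, measured 4.92, 5.14 and 4.99 at day 5 and 8.93, 8.36 and 8.44 in GFP- samples, a log2 difference of 3.57 ± 0.22 (11.8-fold, adjusted p = 1.23e-08). Lamb1, Lamb2 and Lamc1, which encode laminin chains, rose by 1.65, 1.46 and 1.59, while the chain genes Lama1 and Lama4 did not pass (0.14 and 0.15).

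The TGF-beta pathway rose with the matrix: 10 of 13 ligands, receptors and targets were higher and 0 were lower (median 1.42). Of the ligands, Tgfb2 measured 4.73, 5.61 and 5.53 at day 5 and 7.73, 8.58 and 8.28 in GFP- samples, a log2 difference of 2.9 ± 0.24 (7.49-fold, adjusted p = 2.51e-07). Ltbp1, which holds the latent ligand in the matrix, rose from a day 5 mean of 4.46 to a GFP- mean of 8.25 (3.79 ± 0.25, 13.9-fold, adjusted p = 2.09e-08). Of the targets, Tgfbi measured 5.26, 5.26 and 5.22 at day 5 and 9.96, 9.81 and 10.01 in GFP- samples, a log2 difference of 4.68 ± 0.33 (25.7-fold, adjusted p = 5.45e-08). The GFP- samples of Tgfbi lay within 0.2 of each other. Ccn2, a connective tissue growth factor, rose by 2.87 ± 0.21 (adjusted p = 6.49e-08). The receptor gene Tgfbr1 and the inhibitory Smad7 did not pass (-0.25 and 0.19).

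Part of the matrix and of the muscle changes differed between the GFP- samples. Sample 3 was at least 2-fold above the mean of the other 2 GFP- samples in 239 probe sets and at least 2-fold below it in 638. Counted in the same way within each group, sample 5 had 85 and 21, sample 6 had 107 and 23, and each day 5 sample had 8 to 31. GFP+ sample 3 likewise stood apart, with 223 probe sets higher and 344 lower. Ogn, a small proteoglycan of bone and connective tissue, measured 2.93, 2.68 and 3.37 at day 5 and 4.87, 9.42 and 9.64 in GFP- samples. GFP- sample 3 lay above the day 5 samples and more than 4 log2 units below the other two GFP- samples. The difference was 4.98 ± 0.99, 31.6-fold, adjusted p = 0.00119, and 6.53 (92.7-fold, adjusted p = 4.68e-06) without GFP- sample 3, 4.26 (19.1-fold, adjusted p = 0.00827) without GFP- sample 5 and 4.15 (17.7-fold, adjusted p = 0.00833) without GFP- sample 6. Penk, the proenkephalin gene, measured 4.8, 9.44 and 9.69 in GFP- samples against 4.15, 4.59 and 4.7 on day 5, a difference of 3.5 ± 1.06, 11.3-fold, adjusted p = 0.0213. That call was lost without GFP- sample 5 (adjusted p = 0.106), GFP- sample 6 (0.114), day 5 sample 3 (0.0691) or day 5 sample 5 (0.0522). A fit of only the groups compared also lost the call (adjusted p = 0.0643). The difference was 5.09 (34-fold, adjusted p = 0.00015) without GFP- sample 3.

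Several tendon and matrix genes were likewise lowest in GFP- sample 3. Tnmd, a surface protein of tendon cells, measured 2.65, 7.34 and 7.9 and did not pass with all samples (3.17 ± 1.29, adjusted p = 0.0893), but was 4.83 (28.4-fold, adjusted p = 0.004) without GFP- sample 3. Postn, which encodes periostin, measured 5.73, 9.22 and 9.69 after 2.09, 3.03 and 2.98 on day 5, a difference of 5.51 ± 0.74, 45.5-fold, adjusted p = 3.4e-05; it was 6.75 (108-fold, adjusted p = 3.77e-08) without GFP- sample 3 and 4.77 (27.3-fold, adjusted p = 0.000216) without GFP- sample 6. Lox, the lysyl oxidase that crosslinks collagen and elastin, measured 7.41, 9.51 and 9.64 and went from 5.94 ± 0.42, 61.4-fold, adjusted p = 4.78e-08 to 6.66 (101-fold, adjusted p = 1.47e-10) without sample 3. Col12a1 did the same, at 7.08, 9.43 and 9.77, with 5.73 ± 0.51, 53.2-fold, adjusted p = 5.56e-07 over all samples and 6.57 (95.2-fold, adjusted p = 2.37e-09) without sample 3. Scx, a transcription factor of tendon progenitors, was high in every GFP- sample at 6.49, 7.35 and 7.45 (3.18 ± 0.31, 9.05-fold, adjusted p = 1.34e-06). Over the whole fibroblast and tendon list of 12 genes, 4 rose and 1 fell. Fndc1, a member that rose (1.55 ± 0.28, adjusted p = 0.000513), was highest in GFP- sample 3, at 6.8, 5.52 and 5.61. The gene that fell was Pdgfra, the PDGF receptor of early mesoderm and fibroblasts, at 8.96, 8.54 and 8.59 at day 5 and 5.42, 6.69 and 6.44 in GFP- samples, a log2 difference of -2.51 ± 0.47 (5.71-fold lower, adjusted p = 0.0007).

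Other genes were highest in GFP- sample 3. Pfkl, a glycolytic enzyme, measured 8.26, 6.45 and 6.74 and Tpi1, another, 10.01, 8.65 and 8.9. The summed level of the glycolysis list ran from 103.5 to 116.3 in GFP- samples, against 99.4 to 101.6 on day 5 and 102.3 to 114.6 in GFP+ samples. Of 15 glycolysis genes measured, 3 rose and 0 fell, against 12% and 13.9% of all probe sets. Those that rose were Slc2a3, a glucose transporter, by 1.98 ± 0.2, and the enzymes Hk1 and Pfkp by 1.96 ± 0.28 and 2.08 ± 0.28. Col14a1, a fibril-associated collagen, measured 6.66, 5.1 and 5.25, and Fst, the follistatin gene, 9.49, 8.27 and 8.22. Why sample 3 stood apart was not tested.

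**Figure D3:**
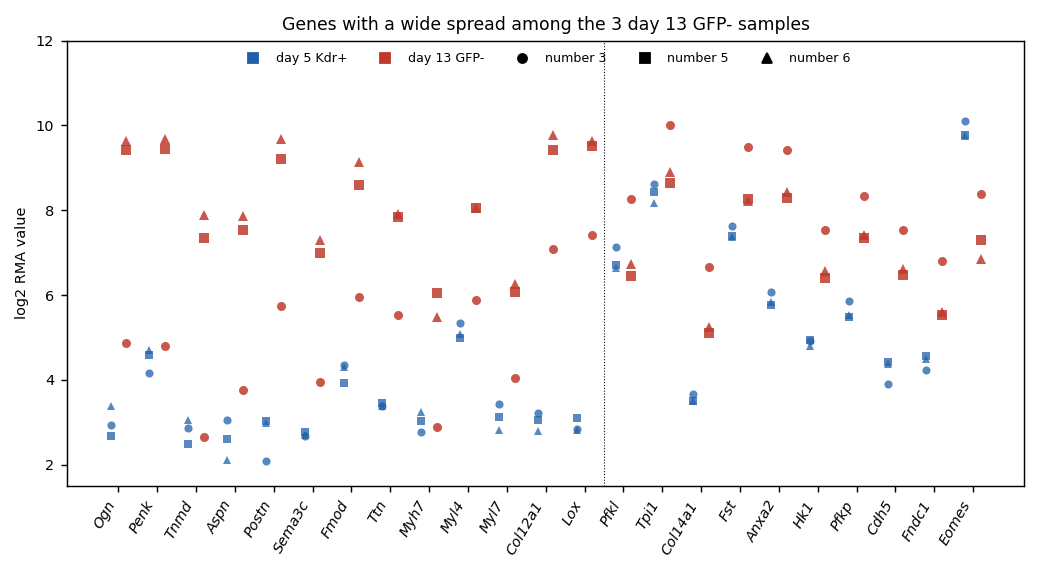
Log2 RMA value (y axis) of genes with a wide spread among the 3 day 13 GFP- samples (x axis, gene names), with day 5 Kdr+ samples in blue, GFP- samples in red and marker shapes for the numbers 3, 5 and 6. Left of the dotted line GFP- sample 3 was below the other two GFP- samples, as for Ogn at 4.87, 9.42 and 9.64, and right of it above them, as for Pfkl at 8.26, 6.45 and 6.74.

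Part of the endoderm genes rose in GFP- cells. Of 13 measured endoderm transcription factors, 5 rose, 1 fell and 7 did not pass (median 0.24), and 6 were higher and 0 lower than in GFP+ cells. Foxa1, a pioneer factor of endoderm, measured 4.15, 3.76 and 3.63 at day 5 and 5.66, 5.76 and 5.62 in GFP- samples, a log2 difference of 1.83 ± 0.14 (3.55-fold, adjusted p = 1.19e-07). The GFP+ samples stood at 3.87, 3.73 and 3.84, so that GFP- exceeded GFP+ by 1.86 (adjusted p = 1.74e-06). Hnf4a, a regulator of liver and visceral endoderm genes, measured 4.33, 4.13 and 4.66 at day 5 and 5.45, 5.98 and 5.74 in GFP- samples, a log2 difference of 1.35 ± 0.24 (2.55-fold, adjusted p = 0.000463). Sox17 and Foxa2, factors of early endoderm, rose by 0.84 ± 0.14 (adjusted p = 0.000197) and 0.63 ± 0.13 (adjusted p = 0.00137). The excess of Foxa2 over GFP+ cells was 0.52 (adjusted p = 0.0288) and lost its call without 5 of the 6 day 13 samples, with adjusted p from 0.0558 (GFP+ sample 3) to 0.111 (GFP+ sample 6). Gata6, which mesoderm shares with endoderm, measured a mean of 8.16 at day 5 and 8.14 in GFP- samples and did not pass. Cdx2, a factor of hindgut and trophoblast, was the member that fell (-0.62 ± 0.18, adjusted p = 0.0182), a call lost without GFP- sample 6 (0.0785), day 5 sample 5 (0.0584) or day 5 sample 6 (0.1).

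Products of visceral endoderm and fetal liver rose in part. Of 18 serum protein genes measured, 8 rose, 0 fell and 10 did not pass (median 0.32). Of 11 genes of uptake and secretion, 7 rose and 0 fell (median 1.36), and 6 were higher and 0 lower than in GFP+ cells. Apob, the carrier protein of lipoproteins, measured 3.39, 3.4 and 3.15 at day 5 and 6.8, 7.49 and 7.58 in GFP- samples, a log2 difference of 3.97 ± 0.24 (15.7-fold, adjusted p = 9.14e-09). Apoa1, its counterpart in high-density lipoprotein, measured 4.25, 4.44 and 4.23 at day 5 and 6.81, 7.22 and 7.29 in GFP- samples, a log2 difference of 2.8 ± 0.16 (6.95-fold, adjusted p = 6.06e-09). Afp, the alpha-fetoprotein gene, measured 3.41, 3.21 and 3.22 at day 5 and 5.17, 5.79 and 6.11 in GFP- samples, a log2 difference of 2.41 ± 0.18 (5.31-fold, adjusted p = 9.15e-08). For each of the 3 genes the GFP- samples exceeded day 5 and GFP+ samples without overlap; the differences from GFP+ were 3.5, 2.53 and 2.02. Spink1, a secreted protease inhibitor, measured 3.37, 3.0 and 2.97 at day 5 and 8.42, 8.69 and 8.43 in GFP- samples and 5.06, 4.42 and 4.08 in GFP+ samples. Its rise over day 5 was 5.4 ± 0.21, 42.3-fold, adjusted p = 1.23e-10, and its excess over GFP+ was 4.0 (adjusted p = 5.94e-08). The endocytic receptor genes Lrp2 and Cubn rose by 1.7 ± 0.2 and 1.38 ± 0.11, and Ttr, a carrier of thyroid hormone, by 1.23 ± 0.16. The GFP- mean was 5.44 for Lrp2 and 3.97 for Cubn, the latter below the sample medians and so not shown to lie above background. Ctsh, a lysosomal protease, rose by 3.89 ± 0.19. Apoa2, with a difference of 0.03, and Fga, a fibrinogen chain, with 0.01, did not pass. The summed level of the serum protein list was 60.4 to 62.0 on day 5, 76.2 to 79.9 in GFP- samples and 63.2 to 64.3 in GFP+ samples.

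Of 14 gastric and gut genes, 3 rose and 0 fell, against 12% and 13.9% of all probe sets. Pga5, a pepsinogen, measured 3.56, 4.11 and 3.82 at day 5 and 9.26, 9.38 and 9.41 in GFP- samples, a log2 difference of 5.52 ± 0.16 (45.9-fold, adjusted p = 1.62e-11). The GFP+ samples held 5.57, 5.24 and 5.2 and were 4.01 log2 units below GFP- on the mean (adjusted p = 3.66e-09). The stomach genes Pgc and Tff2 did not pass (0.0 and 0.0). Vil1, an actin bundler of microvilli, rose by 0.94 ± 0.13 (adjusted p = 4.72e-05), to a GFP- mean of 3.91 that lay below the sample medians.

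Of 16 adhesion and keratin genes, 6 rose and 1 fell against day 5, while 9 were higher and 0 lower than in GFP+ cells (11 and 0 with the sample number as a block). Cdh1, the E-cadherin gene, measured 4.86, 4.85 and 4.87 at day 5 and 7.57, 7.14 and 6.92 in GFP- samples, a log2 difference of 2.35 ± 0.19 (5.1-fold, adjusted p = 1.77e-07). Its day 0 mean was 9.4, and its GFP+ samples were 4.82, 4.42 and 4.13. GFP- samples thus lay between iPSC and day 5 cells, with no overlap with the GFP+ samples. The tight junction genes Cldn6 and Ocln measured 6.94, 6.81 and 6.89 and 5.9, 6.03 and 5.46 in GFP- samples, with rises of 3.33 ± 0.21 and 2.07 ± 0.23. Krt18, a keratin of simple epithelia, did not pass against day 5 (a mean of 8.66 at day 5 and 8.67 in GFP- samples) and was 1.61 above GFP+ cells, where it measured 7.24, 7.11 and 6.83 (adjusted p = 8.63e-06). Epcam measured a mean of 6.11 at day 5 and 6.21 in GFP- samples and 4.14, 4.4 and 3.64 in GFP+ samples. Esrp1, a splicing factor of epithelia, fell by 0.53 on the log2 scale (adjusted p = 0.00411), and its GFP+ level was 1.35 lower still. Of the mesenchymal genes, Prrx1, a transcription factor of limb and wall mesenchyme, rose by 2.37 ± 0.27 and was -1.3 relative to GFP+ cells (adjusted p = 0.0116; without GFP+ sample 5, 0.0536). Vim, the vimentin gene, rose by 0.74 ± 0.14, and Snai1, a repressor of E-cadherin, fell by 0.86 on the log2 scale (adjusted p = 0.00268). The summed level of the epithelial list was 85.8 to 89.1 in GFP- samples against 74.2 to 75.4 on day 5 and 66.2 to 72.4 in GFP+ samples. The part of endoderm and epithelial transcripts in the other results was not tested.

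**Figure D4:**
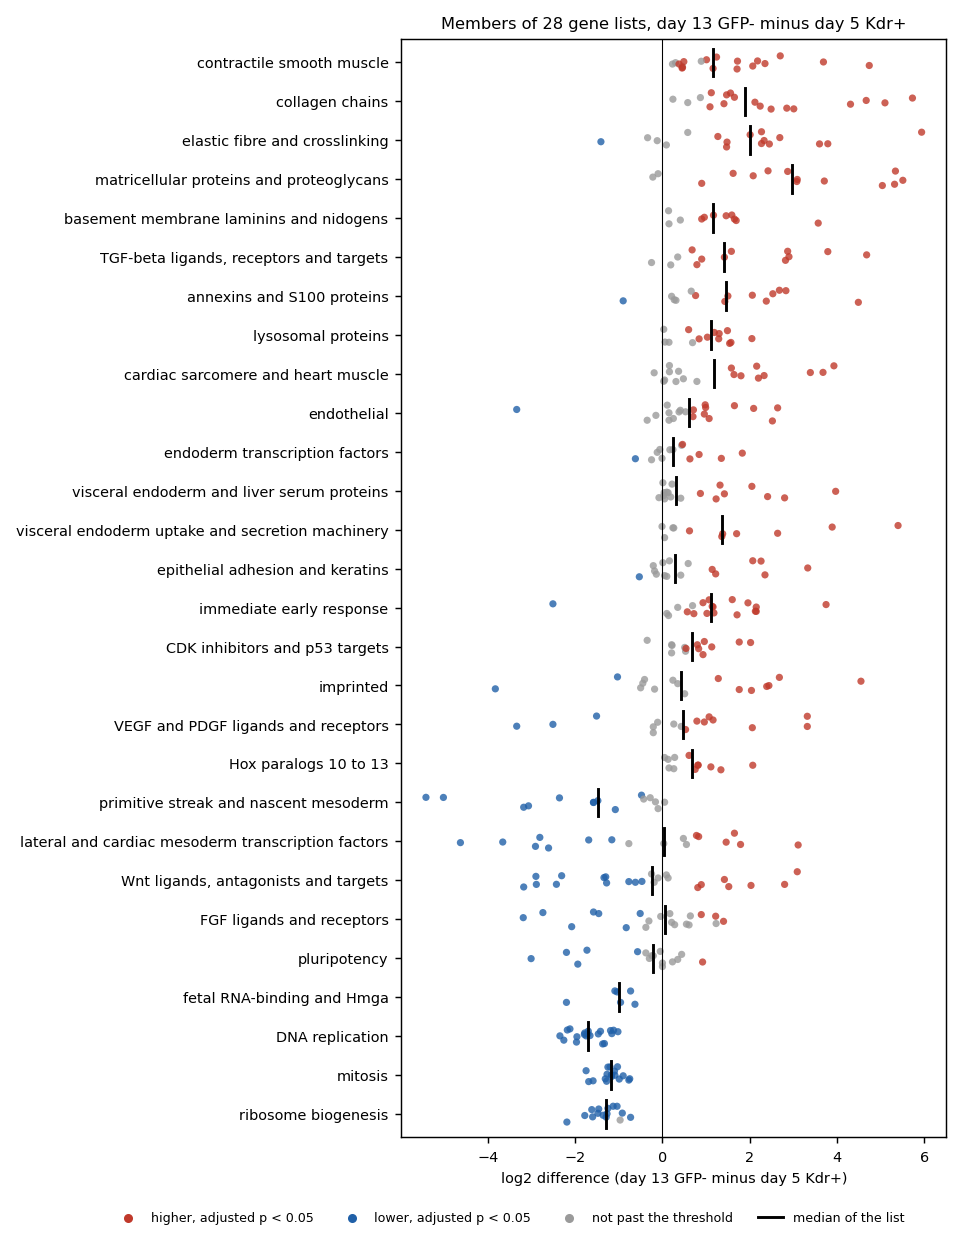
Log2 difference of day 13 GFP- minus day 5 Kdr+ (x axis) for each measured member of the gene lists (y axis), with members past an adjusted p of 0.05 in red (higher) or blue (lower), the others in grey, and a black bar at each list's median. All 20 replication and all 17 mitosis genes lie left of 0, and matrix lists lie mostly to the right, with medians of 1.88 to 2.98.

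Endothelial genes did not follow Kdr. Of 20 measured, 10 rose and 1 fell, the 1 being Kdr itself, for which the day 5 cells had been sorted. Cdh5, the VE-cadherin of endothelial junctions, measured 3.91, 4.43 and 4.37 at day 5 and 7.53, 6.47 and 6.62 in GFP- samples, a log2 difference of 2.64 ± 0.33 (6.23-fold, adjusted p = 1.68e-05). Sample 3 was the highest and none overlapped with day 5. Cdh5 stood 2.1 above GFP+ cells (adjusted p = 0.00144), and Pecam1, a junctional adhesion molecule, 1.28 above them (adjusted p = 0.00481) after a rise of 0.99 ± 0.23. Tek, an angiopoietin receptor, rose by 1.65 ± 0.31 (adjusted p = 0.000801) and exceeded GFP+ cells by 1.44 (adjusted p = 0.0143), an excess that lost its call without GFP+ sample 3 (0.0543), GFP- sample 5 (0.064) or GFP- sample 6 (0.055). Eng, a co-receptor for TGF-beta, rose by 2.09 ± 0.18 but was -0.87 relative to GFP+ (adjusted p = 0.0103; without GFP+ sample 6, 0.0622). Erg, an endothelial ETS factor, rose by 2.52 ± 0.26, with 5.58, 6.19 and 6.34 in GFP- and 5.85, 6.71 and 7.04 in GFP+ samples. Cldn5 and Robo4, also endothelial surface genes, did not pass (0.11 and 0.15). The summed level of the list was 82.6 to 87.3 on day 5, 96.0 to 100.5 in GFP- and 89.8 to 90.9 in GFP+ samples.

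Of 16 genes of the VEGF and PDGF families, 8 rose and 3 fell. Vegfa, the main ligand of Kdr, measured 6.18, 6.21 and 6.02 at day 5 and 9.55, 9.34 and 9.49 in GFP- samples, a log2 difference of 3.32 ± 0.16 (9.99-fold, adjusted p = 1.21e-09). Pdgfc, a ligand of Pdgfra, measured 5.29, 5.69 and 5.62 at day 5 and 8.65, 8.89 and 9.0 in GFP- samples, a log2 difference of 3.32 ± 0.16 (9.98-fold, adjusted p = 9.74e-10). Pgf, the placental growth factor gene, rose by 2.06 ± 0.12 (adjusted p = 8.41e-09). These 3 ligand genes rose in every GFP- sample relative to every day 5 sample. Of the receptors, Pdgfra fell, as did Kdr, for which the day 5 cells had been sorted. The co-receptor gene Nrp1 measured 8.47, 8.54 and 8.55 at day 5 and 7.18, 7.03 and 6.81 in GFP- samples, a log2 difference of -1.51 ± 0.11 (2.85-fold lower, adjusted p = 8.9e-08). Vegfb and Pdgfa did not pass (-0.11 and -0.21).

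Blood and leukocyte genes were mostly low and did not pass. Of 15 blood progenitor and erythroid genes, 1 rose and 2 fell, not above the 12% and 13.9% of all probe sets. Etv2, a factor at the root of blood and endothelium, fell from a day 5 mean of 5.51 to a GFP- mean of 4.34 (-1.17 ± 0.23, 2.25-fold lower, adjusted p = 0.00126), and Gata2, a blood progenitor factor, from a day 5 mean of 3.98 to a GFP- mean of 3.23 (adjusted p = 0.0116). The gene that rose, Itga2b, lost its call without GFP- sample 3 (adjusted p = 0.0716), GFP- sample 6 (0.0667) or day 5 sample 3 (0.142). The erythroid genes Gata1 and Hbb-bh1 did not pass (0.03 and -0.17). Of 12 macrophage and leukocyte genes, 1 rose, the endosomal protein gene Cd68 (1.42 ± 0.22, 2.68-fold, adjusted p = 0.000153), while Ptprc and Tyrobp, which all or most leukocytes carry, did not pass (-0.14 and 0.05).

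Genes of the heart sarcomere rose in part. Of 18 measured, 9 rose and 0 fell; the median difference of 1.19 was 0.79 without GFP- sample 5 and 1.41 without GFP- sample 3. Tnnt2, the cardiac troponin T gene, measured 5.98, 6.03 and 5.89 at day 5 and 8.87, 9.57 and 9.63 in GFP- samples, a log2 difference of 3.39 ± 0.19 (10.5-fold, adjusted p = 5.38e-09). Tnni1, the troponin I of slow and embryonic muscle, measured 5.46, 5.53 and 5.31 at day 5 and 9.38, 9.26 and 9.45 in GFP- samples, a log2 difference of 3.93 ± 0.23 (15.3-fold, adjusted p = 8e-09). Both were high in every GFP- sample, and neither differed from GFP+ cells past the threshold. Ttn, the titin gene, measured 5.52, 7.83 and 7.91 in GFP- samples against 3.38, 3.45 and 3.39 on day 5, a difference of 3.68 ± 0.54, 12.8-fold, adjusted p = 8.12e-05, and 4.46 (22-fold, adjusted p = 1.72e-06) without GFP- sample 3. Myl7, an atrial light chain, measured 4.04, 6.08 and 6.25; its call (2.33 ± 0.62, adjusted p = 0.00968) was lost without GFP- sample 6 (adjusted p = 0.0534), and the difference was 3.04 (8.21-fold, adjusted p = 0.000956) without GFP- sample 3. Sample 3 was the low one for both. Mybpc3 and Ryr2, of the mature sarcomere and calcium release, did not pass (0.03 and 0.05), nor did Myh6, an atrial myosin heavy chain (0.79 ± 0.39). Tnnt1, a troponin of slow skeletal muscle, rose by 3.22 ± 0.18 and exceeded GFP+ cells by 1.45 (adjusted p = 0.000213), while the skeletal muscle determinants Myod1 and Myf5 differed by -0.25 and -0.07 and did not pass.

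Of 11 mesothelial and epicardial genes, 2 rose and 3 fell, against 12% and 13.9% of all probe sets. Only 1 rose without GFP- sample 3, GFP- sample 5, day 5 sample 3 or day 5 sample 5, or after median centring. Of 11 neural genes, 2 rose and 0 fell, against the same shares. Lrrn4, a mesothelial surface protein that was high on day 5, measured 6.87, 6.84 and 7.16 at day 5 and 4.19, 3.46 and 3.31 in GFP- samples, a log2 difference of -3.3 ± 0.26 (9.87-fold lower, adjusted p = 1.57e-07), and Bnc1 fell from a day 5 mean of 4.27 to a GFP- mean of 3.2 (-1.06 ± 0.17, 2.09-fold lower, adjusted p = 0.000152). Aldh1a2, the retinoic acid synthesis enzyme of epicardium and other mesoderm, rose from a day 5 mean of 3.76 to a GFP- mean of 5.49 (1.73 ± 0.26, 3.31-fold, adjusted p = 0.000104). Upk3b and Tbx18 did not pass (0.04 and 0.02). Ncam1, an adhesion molecule of neural and mesenchymal cells, rose from a day 5 mean of 7.3 to a GFP- mean of 9.53 (2.23 ± 0.28, 4.68-fold, adjusted p = 1.95e-05), whereas the neural factors Pax6 and Sox1 differed by 0.01 and -0.19 and did not pass.

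Primitive streak genes fell. Of 15 measured, 0 rose and 10 fell, with a median of -1.48. Eomes, a T-box factor of streak and endoderm, measured 10.11, 9.77 and 9.76 at day 5 and 8.39, 7.31 and 6.85 in GFP- samples, a log2 difference of -2.36 ± 0.35 (5.14-fold lower, adjusted p = 0.0001). Foxh1, the partner of Smad2 in the Nodal response, measured 8.82, 8.69 and 8.71 at day 5 and 6.28, 5.24 and 5.49 in GFP- samples, a log2 difference of -3.07 ± 0.22 (8.42-fold lower, adjusted p = 6.73e-08). Wnt3, the ligand that starts the streak, measured 7.74, 7.03 and 7.24 at day 5 and 4.41, 3.96 and 4.1 in GFP- samples, a log2 difference of -3.18 ± 0.16 (9.06-fold lower, adjusted p = 1.88e-09). GFP- samples lay below day 5 samples in each case, and sample 3 was the highest of them. The GFP- values remained above those of GFP+ cells. Eomes measured 5.85, 4.95 and 4.48 there, 2.43 below GFP- on the mean (adjusted p = 0.000847), Foxh1 4.36, 3.82 and 4.07, 1.58 below (adjusted p = 0.000631), and Mixl1 4.36, 3.6 and 3.52 against 6.12, 5.46 and 4.76, 1.63 below (adjusted p = 0.00978; without GFP+ sample 6, 0.0546). In all, 6 of the 15 genes were higher and 0 lower in GFP- than in GFP+ cells. Mesp1, an early mesoderm factor, fell from a day 5 mean of 4.02 to a GFP- mean of 2.54 (-1.48 ± 0.17, 2.79-fold lower, adjusted p = 5.38e-06), where the day 0 mean was 2.55. Wnt3a and the ligand gene Nodal did not pass (-0.1 and 0.05).

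Factors of lateral and cardiac mesoderm moved in both directions: 6 of 17 rose and 7 fell. Msx1 and Msx2, homeobox targets of BMP, fell from a day 5 mean of 7.6 to a GFP- mean of 4.99 (-2.61 ± 0.12, 6.12-fold lower, adjusted p = 5.6e-10) and from a day 5 mean of 9.0 to a GFP- mean of 6.09 (-2.91 ± 0.34, 7.52-fold lower, adjusted p = 7.94e-06). Tbx3, a T-box factor of limb and heart, fell from a day 5 mean of 9.44 to a GFP- mean of 6.64 (-2.81 ± 0.15, 7-fold lower, adjusted p = 2.95e-09). Mef2c, a transcription factor of muscle genes, measured 4.48, 3.71 and 4.64 at day 5 and 7.25, 7.57 and 7.34 in GFP- samples, a log2 difference of 3.11 ± 0.19 (8.65-fold, adjusted p = 1.23e-08). Foxc1, a factor of mural cells and somites, rose from a day 5 mean of 3.83 to a GFP- mean of 5.48 (1.65 ± 0.33, 3.13-fold, adjusted p = 0.00119), and Meis1, a Hox cofactor, from a day 5 mean of 4.63 to a GFP- mean of 6.42 (1.79 ± 0.41, 3.45-fold, adjusted p = 0.00379), with GFP- sample 3 the lowest of its group at 5.31. Gata6 and Hand2 did not pass (-0.01 and 0.48), and the cardiac factor Nkx2-5 differed by 0.03.

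Of 16 measured pluripotency genes, 5 fell and 1 rose (2 without GFP- sample 6). Nanog measured 7.68, 7.3 and 7.27 at day 5 and 4.53, 4.52 and 4.19 in GFP- samples, a log2 difference of -3.01 ± 0.19 (8.04-fold lower, adjusted p = 1.31e-08). Dnmt3b, a de novo DNA methyltransferase, measured 8.39, 8.41 and 8.35 at day 5 and 6.93, 6.61 and 6.41 in GFP- samples, a log2 difference of -1.73 ± 0.16 (3.33-fold lower, adjusted p = 8.52e-07). Sall4, a zinc finger factor of stem cells, measured 9.82, 9.79 and 9.73 at day 5 and 7.98, 7.88 and 7.66 in GFP- samples, a log2 difference of -1.94 ± 0.17 (3.84-fold lower, adjusted p = 5.68e-07). GFP- samples lay below day 5 samples without overlap. GFP+ samples were lower again, at 4.73, 4.55 and 4.61 for Dnmt3b and 6.11, 5.8 and 5.22 for Sall4, so that GFP- exceeded GFP+ by 2.02 (adjusted p = 2.48e-06) and 2.13 (adjusted p = 3.12e-06). Sox2, which stem cells share with neural and foregut cells, was the gene that rose, at 5.32, 5.3 and 5.52 at day 5 and 6.87, 5.93 and 6.09 in GFP- samples, a log2 difference of 0.92 ± 0.24 (1.89-fold, adjusted p = 0.00893). Its GFP- level remained under the day 0 mean of 9.68. The naive factors Esrrb and Dppa4 differed by 0.0 and 0.0 and did not pass, and had day 0 means of 7.14 and 7.99.

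Wnt genes moved in both directions. Of 23 genes measured, 7 rose and 11 fell. Axin2, the feedback target of canonical Wnt signals, measured 7.06, 7.31 and 7.6 at day 5 and 4.36, 4.46 and 4.48 in GFP- samples, a log2 difference of -2.89 ± 0.14 (7.4-fold lower, adjusted p = 1.16e-09). Wnt5a, a non-canonical ligand of mesoderm, measured 7.82, 7.97 and 7.9 at day 5 and 4.75, 5.1 and 5.15 in GFP- samples, a log2 difference of -2.9 ± 0.18 (7.44-fold lower, adjusted p = 1.17e-08). Among antagonists, Sfrp1 measured 4.43, 4.01 and 4.12 at day 5 and 7.24, 7.24 and 7.36 in GFP- samples, a log2 difference of 3.09 ± 0.23 (8.53-fold, adjusted p = 8.79e-08). Sfrp5, an antagonist made by endoderm, rose from a day 5 mean of 3.42 to a GFP- mean of 6.21 (2.8 ± 0.16, 6.95-fold, adjusted p = 6.13e-09) and stayed at 3.66, 3.27 and 3.55 in GFP+ samples, 2.72 lower (adjusted p = 2.12e-07). Dkk3 rose by 2.03 ± 0.33, and Wnt3a and Wnt11 did not pass (-0.1 and 0.09).

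FGF genes fell more often than they rose. Of 20 ligands, receptors and feedback targets, 3 rose, near the 12% of all probe sets, and 7 fell, against 13.9%. Without GFP- sample 3 the count that rose was 5. Fgf3 measured 6.63, 6.78 and 6.73 at day 5 and 3.65, 3.17 and 3.74 in GFP- samples, a log2 difference of -3.19 ± 0.17 (9.14-fold lower, adjusted p = 3.3e-09). Fgf8, the ligand of streak cells, fell from a day 5 mean of 5.76 to a GFP- mean of 4.19 (-1.58 ± 0.18, 2.98-fold lower, adjusted p = 5.36e-06), Fgf15 from a day 5 mean of 6.56 to a GFP- mean of 3.82 (-2.74 ± 0.3, 6.69-fold lower, adjusted p = 4.12e-06) and the receptor gene Fgfr2 from a day 5 mean of 7.06 to a GFP- mean of 4.98 (-2.08 ± 0.24, 4.22-fold lower, adjusted p = 7.1e-06). Fgf10, a ligand of mesenchyme, fell from a day 5 mean of 8.63 to a GFP- mean of 7.16 (-1.46 ± 0.31, 2.75-fold lower, adjusted p = 0.00186) and remained 1.64 above GFP+ cells (adjusted p = 0.0056). Fgf5 rose from a day 5 mean of 4.88 to a GFP- mean of 6.1 (1.22 ± 0.26, 2.33-fold, adjusted p = 0.00199), while it measured 4.38, 3.88 and 3.82 in GFP+ samples. Spry1, a feedback inhibitor, rose by 1.4 ± 0.14 (adjusted p = 1.31e-06).

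Notch, BMP and Nodal genes moved in both directions. Of 14 Notch genes, 4 rose and 5 fell: the ligand gene Jag1 measured 4.28, 4.2 and 4.16 at day 5 and 7.1, 6.68 and 6.83 in GFP- samples, a log2 difference of 2.66 ± 0.12 (6.31-fold, adjusted p = 5.15e-10), and Jag2 rose by 1.62 ± 0.17, whereas the ligand Dll3 fell from a day 5 mean of 4.87 to a GFP- mean of 2.76 (-2.11 ± 0.23, 4.32-fold lower, adjusted p = 3.85e-06) and the target Hes1 from a day 5 mean of 8.63 to a GFP- mean of 7.06 (-1.58 ± 0.22, 2.99-fold lower, adjusted p = 4.13e-05). The target Heyl rose by 1.06 ± 0.2 (adjusted p = 0.00094) and Nrarp fell by 1.36 on the log2 scale (adjusted p = 0.000131). Of 11 BMP ligands and receptors, 4 rose and 4 fell. Bmp4 fell from a day 5 mean of 10.24 to a GFP- mean of 8.55 (-1.69 ± 0.3, 3.22-fold lower, adjusted p = 0.000437), Bmp7 from a day 5 mean of 8.09 to a GFP- mean of 5.98 (-2.11 ± 0.29, 4.3-fold lower, adjusted p = 5.28e-05) and the receptor Bmpr1b from a day 5 mean of 4.23 to a GFP- mean of 2.39 (-1.84 ± 0.21, 3.58-fold lower, adjusted p = 7.86e-06), while Bmp6 rose from a day 5 mean of 4.74 to a GFP- mean of 6.16 (1.43 ± 0.26, 2.69-fold, adjusted p = 0.000475). The BMP target Id2 rose by 0.86 ± 0.17 (adjusted p = 0.00123), and Id1 and Smad7 did not pass (0.57 and 0.19). Of 13 Nodal and activin genes, 3 rose and 3 fell. Tdgf1, the Nodal co-receptor, fell from a day 5 mean of 10.22 to a GFP- mean of 5.2 (-5.02 ± 0.24, 32.5-fold lower, adjusted p = 8.9e-10), beside Foxh1 above. Inhba, which encodes an activin chain, rose from a day 5 mean of 2.68 to a GFP- mean of 4.27 (1.58 ± 0.21, 3-fold, adjusted p = 3.2e-05), and Fst, which binds activin, from a day 5 mean of 7.46 to a GFP- mean of 8.66 (1.2 ± 0.29, 2.3-fold, adjusted p = 0.00465).

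Genes of proliferation fell. All 20 measured DNA replication genes fell, with differences from -2.35 to -1.02 and a median of -1.71. All 17 measured mitosis genes fell too, from -1.75 to -0.75 with a median of -1.17. Mcm5, a subunit of the replicative helicase, measured 8.81, 8.9 and 8.87 at day 5 and 6.99, 6.66 and 6.58 in GFP- samples, a log2 difference of -2.12 ± 0.15 (4.35-fold lower, adjusted p = 4.54e-08). Rrm2, the small subunit of ribonucleotide reductase, measured 9.38, 9.46 and 9.51 at day 5 and 7.38, 7.1 and 7.32 in GFP- samples, a log2 difference of -2.18 ± 0.15 (4.55-fold lower, adjusted p = 3.49e-08). Top2a, the topoisomerase that untangles sister chromosomes, measured 9.83, 9.74 and 9.79 at day 5 and 8.4, 8.58 and 8.54 in GFP- samples, a log2 difference of -1.28 ± 0.21 (2.43-fold lower, adjusted p = 0.000193). In each, the highest GFP- sample lay more than 1 log2 unit below the lowest day 5 sample. Gins1, another helicase subunit, fell from a day 5 mean of 6.92 to a GFP- mean of 4.57 (-2.35 ± 0.14, 5.1-fold lower, adjusted p = 7.61e-09), and Bub1, of the spindle checkpoint, from a day 5 mean of 8.25 to a GFP- mean of 6.49 (-1.75 ± 0.22, 3.38-fold lower, adjusted p = 1.64e-05). Levels remained above those of GFP+ cells in 13 of the 20 replication genes and 5 of the 17 mitosis genes (15 and 9 with the sample number as a block), and below them in 0. Mcm5 stood 0.93 above GFP+ cells (adjusted p = 0.00163) and Pole, a DNA polymerase, 1.03 above them (adjusted p = 0.00254).

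Promoter motifs were counted in these genes. Each list was searched only for the motifs named with it here, and its members had been picked as genes of that process. The shares thus describe the lists, do not depend on the measured changes and are no test of the fall. The E2F motif, searched as TTTNNCGC on both strands, stood in 8 of 15 replication genes with a window (53.3%), against 5.17% of all windows and 7.19% of the 17452 genes on the array. The CCAAT motif stood in 12 of 13 mitosis genes (92.3%), against 37.4% of windows and 41.9% of genes, and the cell cycle homology region TTTGAA in 10 of 13 (76.9%), against 17.9% and 17.8%. The stretches below, from RefSeq and GRCm38.p6, were picked for holding the motifs; Mcm6, Cdk1 and Cdc20 were chosen after their values were seen and fell by 1.37, 0.99 and 1.1 on the log2 scale. Capitals mark E2F matches in Mcm5 (chr8:75109349-75109467, plus strand) and Mcm6 (chr1:128359706-128359825, minus strand), each with 1 pair of matches that overlap. In Top2a (chr11:99024200-99024299), Cdk1 (chr10:69352913-69353012) and Cdc20 (chr4:118437344-118437443), all on the minus strand, they mark CCAAT and TTTGAA in either orientation, with no overlap between them.
Mcm5: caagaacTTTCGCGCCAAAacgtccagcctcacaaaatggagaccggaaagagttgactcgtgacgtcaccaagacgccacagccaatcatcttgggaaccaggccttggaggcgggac
Mcm6: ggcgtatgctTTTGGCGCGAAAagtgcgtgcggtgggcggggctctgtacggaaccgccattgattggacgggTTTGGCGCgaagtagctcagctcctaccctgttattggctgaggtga
Top2a: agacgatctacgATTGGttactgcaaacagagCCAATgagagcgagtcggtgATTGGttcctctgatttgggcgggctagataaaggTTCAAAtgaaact
Cdk1: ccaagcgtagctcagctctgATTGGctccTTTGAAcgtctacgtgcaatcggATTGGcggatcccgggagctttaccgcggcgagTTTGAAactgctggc
Cdc20: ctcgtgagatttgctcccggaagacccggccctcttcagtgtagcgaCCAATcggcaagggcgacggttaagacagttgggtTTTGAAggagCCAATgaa

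Transcripts of ribosome biogenesis fell: 14 of 15 genes fell and 0 rose (median -1.29). Dkc1, which modifies ribosomal RNA and holds telomerase RNA, measured 8.85, 8.7 and 8.69 at day 5 and 6.27, 6.79 and 6.62 in GFP- samples, a log2 difference of -2.19 ± 0.15 (4.55-fold lower, adjusted p = 4.54e-08). Bop1, which processes the large subunit RNA, fell from a day 5 mean of 7.85 to a GFP- mean of 6.07 (-1.78 ± 0.13, 3.42-fold lower, adjusted p = 8.1e-08), and Polr1a, the catalytic subunit of RNA polymerase I, from a day 5 mean of 8.25 to a GFP- mean of 6.77 (-1.48 ± 0.15, 2.78-fold lower, adjusted p = 2.45e-06). Myc, a regulator of growth and of these genes, measured 8.8, 8.86 and 8.79 at day 5 and 6.18, 6.51 and 6.24 in GFP- samples, a log2 difference of -2.51 ± 0.23 (5.69-fold lower, adjusted p = 7.99e-07). The GFP- samples were well below day 5 in all 4 genes. Dkc1 stood 1.24 above GFP+ cells (adjusted p = 0.000198), while Bop1 differed from them by 0.07 (adjusted p = 0.921).

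Inhibitors of the cell cycle rose: 8 of 14 CDK inhibitors and p53 targets were higher and 0 lower (median 0.67). Cdkn1a, which encodes p21, measured 8.77, 9.03 and 8.98 at day 5 and 10.67, 10.71 and 10.67 in GFP- samples, a log2 difference of 1.76 ± 0.15 (3.38-fold, adjusted p = 3.73e-07). Btg2, an antiproliferative p53 target, measured 6.17, 5.8 and 5.98 at day 5 and 8.08, 8.05 and 7.89 in GFP- samples, a log2 difference of 2.02 ± 0.13 (4.05-fold, adjusted p = 2.58e-08). Cdkn1b and Cdkn2b, which encode p27 and p15, rose by 0.93 ± 0.17 and 1.13 ± 0.24. Immediate early genes rose in the same cells: 15 of 20 were higher, and Myc was the 1 that fell. Fos measured 5.18, 4.17 and 4.34 at day 5 and 6.51, 7.05 and 6.5 in GFP- samples, a log2 difference of 2.13 ± 0.36 (4.38-fold, adjusted p = 0.000302). Egr1 measured 5.21, 3.84 and 4.02 at day 5 and 6.38, 6.59 and 6.55 in GFP- samples, a log2 difference of 2.15 ± 0.38 (4.45-fold, adjusted p = 0.000386). Day 5 sample 3 was the highest of its group for both, still below every GFP- sample. Ier3, a survival gene of the same response, rose from a day 5 mean of 4.06 to a GFP- mean of 7.81 (3.75 ± 0.16, 13.4-fold, adjusted p = 2.76e-10) and Zfp36, which destabilises such transcripts, from a day 5 mean of 4.91 to a GFP- mean of 7.06 (2.15 ± 0.14, 4.45-fold, adjusted p = 1.56e-08).

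Among imprinted genes, 7 of 16 rose and 2 fell. Igf2, the fetal growth factor, measured 7.75, 8.4 and 8.29 at day 5 and 10.38, 10.6 and 10.76 in GFP- samples, a log2 difference of 2.44 ± 0.19 (5.41-fold, adjusted p = 1.31e-07). H19, its neighbouring noncoding RNA, measured 6.8, 8.12 and 8.0 at day 5 and 10.16, 10.45 and 10.37 in GFP- samples, a log2 difference of 2.68 ± 0.3 (6.42-fold, adjusted p = 4.79e-06). Plagl1, a zinc finger regulator of imprinted genes, measured 4.56, 5.12 and 4.79 at day 5 and 8.86, 9.53 and 9.73 in GFP- samples, a log2 difference of 4.55 ± 0.22 (23.4-fold, adjusted p = 1.14e-09). All GFP- samples were above all day 5 samples. Dlk1 and Meg3, of one imprinted cluster, rose by 2.39 ± 0.25 and 2.04 ± 0.32, and Dlk1 was -1.42 relative to GFP+ cells (adjusted p = 0.00336). Peg10, a retrotransposon-derived gene, fell by 1.03 on the log2 scale (adjusted p = 0.00196), and Peg3 and Igf2r did not pass (-0.18 and 0.24).

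All 6 measured fetal RNA-binding and Hmga genes fell (median -1.0). The call of Hmga2 (-0.73) was lost without GFP- sample 3 (adjusted p = 0.0621) or day 5 sample 3 (0.074). Cyclic loess (0.0685) and repeated quantile normalization (0.0652) also ended it. Lin28a, which blocks maturation of let-7 miRNAs, measured 8.28, 7.89 and 7.84 at day 5 and 6.01, 5.8 and 5.58 in GFP- samples, a log2 difference of -2.2 ± 0.2 (4.6-fold lower, adjusted p = 7.19e-07), and its paralog Lin28b fell from a day 5 mean of 6.01 to a GFP- mean of 4.96 (-1.04 ± 0.2, 2.06-fold lower, adjusted p = 0.000845). Both stayed above GFP+ cells, by 1.46 (adjusted p = 0.000506) and 1.05 (adjusted p = 0.00576). Trim71, a let-7 target, fell by 1.09 on the log2 scale (adjusted p = 0.0021) and exceeded GFP+ cells by 1.2 (adjusted p = 0.00721).

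Hox genes pattern the body axis. Of the 12 measured genes of paralog groups 10 to 13, 7 rose and 0 fell, with 4 rising without GFP- sample 5. Of 15 in groups 5 to 9, 2 rose, a share near the 12% of all probe sets (4 without GFP- sample 3 or without GFP- sample 5, 1 without GFP- sample 6 or without day 5 sample 3), and of 11 in groups 1 to 4, 3 rose and 2 fell (1 rose without day 5 sample 3). Hoxd13 measured 3.13, 3.37 and 2.91 at day 5 and 4.57, 5.5 and 5.55 in GFP- samples, a log2 difference of 2.07 ± 0.23 (4.2-fold, adjusted p = 4.1e-06). Hoxa11 measured 3.12, 3.27 and 3.35 at day 5 and 3.96, 4.41 and 4.69 in GFP- samples, a log2 difference of 1.11 ± 0.16 (2.16-fold, adjusted p = 8.49e-05). The GFP- values of both genes lay above the day 5 values, and those of Hoxa11 were below the GFP+ values of 4.99, 5.4 and 5.2, a difference of -0.84 (adjusted p = 0.00727). Hoxb1, the most anterior gene of its cluster, fell from a day 5 mean of 4.46 to a GFP- mean of 3.62 (-0.84 ± 0.12, 1.79-fold lower, adjusted p = 4.71e-05).

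Of 14 annexins and S100 proteins, 9 rose and 1 fell (median 1.46). Anxa1, a calcium-dependent membrane protein with anti-inflammatory activity, measured 2.85, 2.65 and 2.72 at day 5 and 6.36, 7.73 and 7.58 in GFP- samples, a log2 difference of 4.49 ± 0.26 (22.4-fold, adjusted p = 7.61e-09). It stood -1.69 relative to GFP+ cells at 8.89, 9.0 and 8.86 (adjusted p = 0.00142). Anxa5 and Anxa6 rose by 2.53 ± 0.17 and 2.38 ± 0.2, and S100a10, the partner of annexin A2, fell by 0.9 on the log2 scale (adjusted p = 0.00178). Of 14 lysosomal genes, 10 rose and 0 fell (median 1.11), among them the proteases Lgmn by 2.05 ± 0.24, Ctsl by 1.57 ± 0.14 and Ctsb by 1.54 ± 0.15. Lamp1 and Grn did not pass (0.06 and 0.03). Of 18 complement and coagulation genes, 6 rose and 0 fell. Tfpi, an inhibitor of coagulation, measured 5.97, 5.72 and 5.51 at day 5 and 7.61, 8.52 and 8.43 in GFP- samples, a log2 difference of 2.45 ± 0.2 (5.47-fold, adjusted p = 1.88e-07), and exceeded GFP+ cells by 1.34 (adjusted p = 0.000825), while Serping1 and Pros1, inhibitors of complement and of coagulation, rose by 2.23 ± 0.22 and 2.07 ± 0.14. Of 14 interferon and antigen presentation genes, 5 rose and 1 fell. The 1 that fell was Ifitm1 (-0.46 ± 0.16, adjusted p = 0.0457), a call lost without any 1 of GFP- samples 3 and 6 and day 5 samples 3, 5 and 6 (adjusted p from 0.0758 to 0.2) and after cyclic loess (0.0565). Among those that rose were B2m, the light chain of MHC class I, from a day 5 mean of 7.28 to a GFP- mean of 9.72 (2.44 ± 0.17, 5.44-fold, adjusted p = 3.82e-08) and the heavy chain gene H2-K1 from a day 5 mean of 4.72 to a GFP- mean of 6.57 (1.86 ± 0.26, 3.62-fold, adjusted p = 4.38e-05). Isg15 and Psmb9, which interferon raises, did not pass (0.03 and 0.06).

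Some of the largest changes lay outside the lists. Srgn, a proteoglycan of secretory granules, measured 9.39, 10.21 and 10.12 in GFP- and 6.73, 6.34 and 5.78 in GFP+ samples. Trh, the thyrotropin-releasing hormone gene, measured 4.95, 4.27 and 4.48 at day 5 and 9.22, 8.01 and 7.76 in GFP- samples, a log2 difference of 3.77 ± 0.46 (13.6-fold, adjusted p = 1.46e-05), and exceeded GFP+ cells by 3.21 (adjusted p = 0.000769). Its day 0 mean was 7.88. Prtg, which encodes a surface protein of posterior mesoderm and neural tissue, measured 10.03, 9.97 and 10.01 at day 5 and 6.71, 6.64 and 6.54 in GFP- samples, a log2 difference of -3.37 ± 0.12 (10.4-fold lower, adjusted p = 6.29e-11). Cacna2d2, a calcium channel subunit, Dpysl5, a cytoskeletal protein of growing axons, and Cpne4 fell by 3.39, 3.34 and 3.3 on the log2 scale, each with no overlap between groups. Genes below GFP+ cells included Il1r1, the interleukin 1 receptor, at 4.38, 4.79 and 4.74 against 6.86, 6.58 and 6.33 (-1.95, adjusted p = 1.44e-05), and Srpx2, a secreted matrix protein, at 5.82, 6.37 and 6.81 against 8.63, 8.05 and 8.33 (-2.0, adjusted p = 0.000259).

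Fewer probe sets passed between the GFP- and GFP+ sorts of day 13 than between GFP- and day 5. Between the sorts, 634 probe sets were higher (2.52%) and 508 lower (2.02%) in GFP- cells, 1142 in all, and correlations between GFP- and GFP+ samples ran from 0.965 to 0.988. With the sample number as a block over the 12 cultured samples, 827 were higher and 635 lower. In the fit of all 5 groups, the count between the sorts was 653 without GFP+ sample 6 and 729 without GFP- sample 5. This comparison, those with day 5 and those with day 0 share the GFP- samples. Collagen chains were lower in GFP- cells in 9 of 18 cases and higher in 0, and elastic fibre genes in 5 of 17 and 0. On the other side, 6 of 13 endoderm transcription factors, 9 of 16 epithelial and 6 of 15 streak genes were higher in GFP- cells, against 2.52%. So were 13 of 20 replication and 6 of 15 ribosome biogenesis genes. In these lists 0 members were lower, which is near the 2.02% of all probe sets and does not set them apart.

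**Figure D5:**
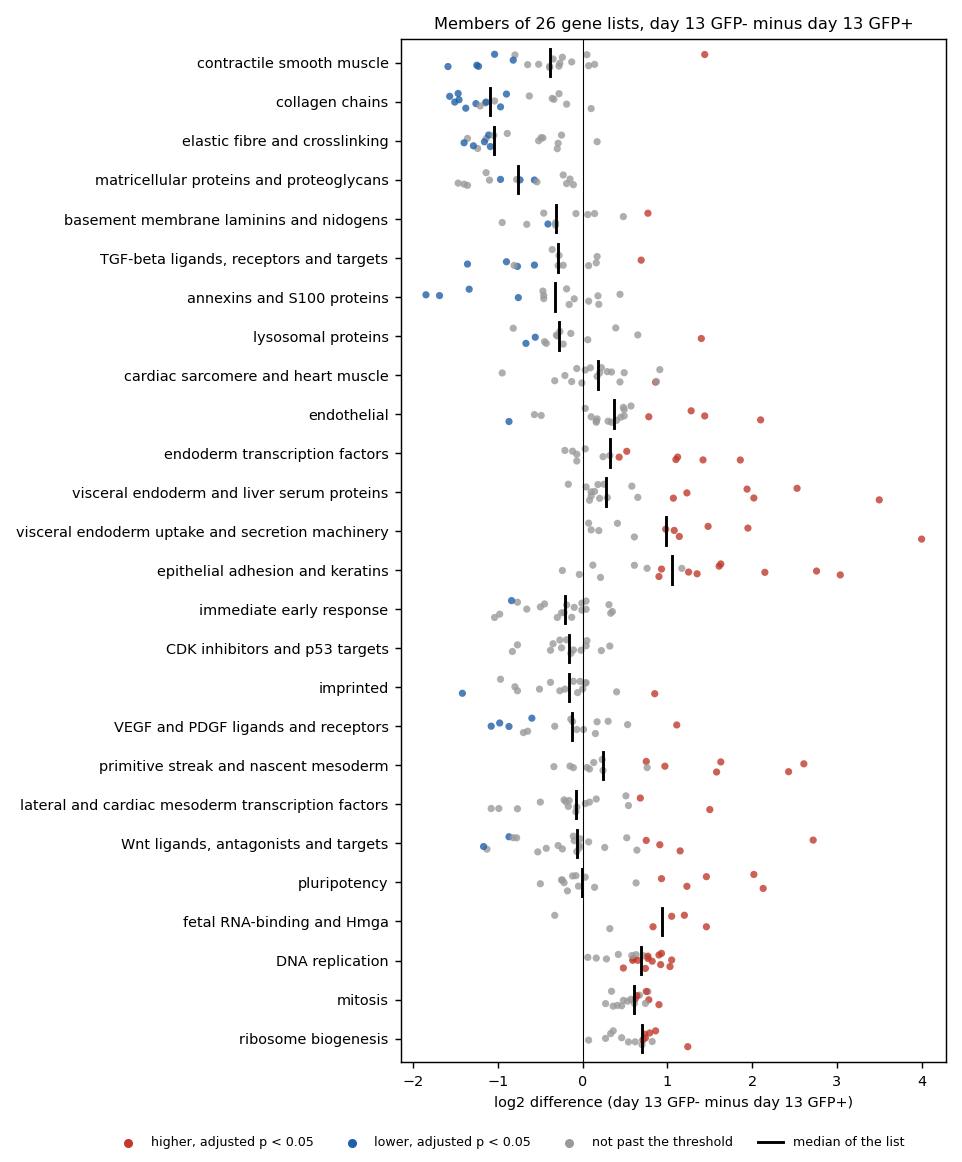
Log2 difference of day 13 GFP- minus day 13 GFP+ (x axis) for each measured member of the gene lists (y axis), with members past an adjusted p of 0.05 in red (higher in GFP-) or blue (lower), the others in grey, and a black bar at each list's median. Collagen chains, with 9 of 18 lower in GFP- cells, lie mostly left of 0, and the replication genes, with 13 of 20 higher, mostly right of it.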

How the data were processed

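The authors deposited log2 expression values for each probe set of an Affymetrix Mouse Gene 2.0 ST array. RMA, affy 1.36.1 and R 2.15.1 are named per the submitters' processing notes, and the log2 scale was read from the range of the values. For the probe sets, a genome build was not given in the sources used here. Of 25206 probe sets, 23185 had a gene symbol and 2021 had none. Values were used as deposited, with no further normalization and no filter on low values.

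All 15 samples entered 1 limma fit (limma 3.58.1, R 4.3.3) with 5 group means and empirical Bayes moderation, and contrasts were adjusted by Benjamini-Hochberg over all probe sets at 0.05. Scripts were tested on simulated data. Tables and figures used Python 3.11.15, pandas 2.3.3 and matplotlib 3.10.9. Same-numbered GFP- and GFP+ samples deviated together from their group means (correlations 0.597, 0.403 and 0.397), so their comparison was also fitted with the number as a block. Samples 5 and 6 also deviated together across numbers (0.278 and 0.345). Sample 3 of one sort ran against samples 5 and 6 of the other (-0.5 to -0.419). The labels do not say what a number marks. Same-numbered GFP- and day 5 samples did not deviate together (0.046, -0.0115 and 0.0572).

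Named genes were Kdr and Acta2; the 12 highest and 12 lowest differences from day 5; from each of 47 gene lists up to 5 members with the largest and 2 with the smallest difference, 3 passing against the majority and 3 with an SD over 0.7 among GFP- samples; up to 8 highest and 8 lowest between the sorts; the 6 of largest SD among GFP- samples; and defining markers of cell types. Members named with a difference near 0 are thus the smallest of their list. The comparison, lists and members were chosen with earlier results of these data known, and the alternatives for single genes between the sorts were added after seeing the data. Of 708 list entries, 682 were measured. Alternatives were other scalings, filters, fits, array weights, a minimum fold and leaving out each sample. Promoter windows came from RefSeq (GRCm38.p6).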

Additional observations from a re-analysis of the deposited data

Results flagged for a closer look

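The rule named 362 genes, leaving aside genes named only as defining markers of cell types. Of these, 96 differed between day 13 GFP- and day 13 GFP+ cells at an adjusted p under 0.05 in limma. Their changes from day 5 thus differed between the 2 sorts, which were compared with the same day 5 samples. Of the 96, 58 were higher and 38 lower in GFP- cells, and 62 differed at least 2-fold. Over all probe sets, 2.52% were higher and 2.02% lower. Up to 8 highest and 8 lowest genes had been named because they passed between the sorts, so these counts are partly set by that choice. Most others were named by their difference from day 5 or their spread among GFP- samples, and the same GFP- values enter the comparison of the sorts. The counts and the shares of all probe sets are thus not a like comparison. Each value below is the log2 difference of GFP- minus GFP+.

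Genes higher in GFP- cells were Pga5 (4.01), Spink1 (4.0), Srgn (3.63), Apob (3.5), Trh (3.21), Cldn6 (3.04), Cdh1 (2.76), Sfrp5 (2.72), Apoa1 (2.53), Eomes (2.43), Sall4 (2.13), Cdh5 (2.1), Fgf5 (2.08), Afp (2.02), Dnmt3b (2.02), Fgb (1.94), Foxa1 (1.86), Fgf10 (1.64), Mixl1 (1.63), Krt18 (1.61), Foxh1 (1.58), Msx2 (1.5), Lrp2 (1.48), Lin28a (1.46), Tnnt1 (1.45), Myocd (1.44), Tek (1.44), Hnf4a (1.42), Esrp1 (1.35), Tfpi (1.34), Ocln (1.25), Dkc1 (1.24), Sox2 (1.23), Rps6ka6 (1.23), Trim71 (1.2), Ctsh (1.14), Sox17 (1.1), Cubn (1.08), Lin28b (1.05), Pole (1.03), Nodal (0.97), Prtg (0.94), Mcm5 (0.93), Cdc6 (0.92), Ccnb2 (0.9), Cldn4 (0.9), Peg10 (0.85), Igf2bp1 (0.83), Slc2a3 (0.83), Gins2 (0.77), Vil1 (0.75), Wnt3 (0.75), Polr1a (0.74), Nolc1 (0.73), Nes (0.71), Tbx3 (0.68), Gins1 (0.65), Foxa2 (0.52).

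Genes lower in GFP- cells were Lpl (-2.0), Srpx2 (-2.0), Il1r1 (-1.95), Anxa8 (-1.85), Glipr1 (-1.83), Lpcat2 (-1.74), Anxa1 (-1.69), Pla2g4a (-1.63), Col11a1 (-1.46), Dlk1 (-1.42), Loxl1 (-1.4), Col3a1 (-1.38), Scx (-1.37), Tgfb3 (-1.36), Prrx1 (-1.3), Itga8 (-1.25), Myl9 (-1.23), Col15a1 (-1.14), Emilin1 (-1.09), Hoxc6 (-1.09), Pdgfrb (-1.08), Tagln (-1.04), Cspg4 (-0.98), Thbs1 (-0.97), Inhba (-0.9), Eng (-0.87), Pdgfc (-0.87), Wnt5a (-0.87), Hoxa11 (-0.84), Ier3 (-0.84), Anxa3 (-0.76), Hoxd10 (-0.74), Tnc (-0.74), Jag2 (-0.68), Fn1 (-0.57), Lipa (-0.56), Spry1 (-0.52), Jag1 (-0.47).

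Of the 96 calls, 63 held without each day 13 sample in turn and 33 were lost without at least 1 of them, and 0 changed direction in any alternative tried. A scaling alternative ended 8 of the calls, and a fit of only the groups compared ended 39. With the sample number as a block, Itga8 (adjusted p = 0.0529) and Nes (adjusted p = 0.0666) lost their call and 20 others of the 362 genes gained one.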

How the results depend on the processing

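The count of 6542 probe sets between GFP- and day 5 lay between 5531 and 6731 when each sample was left out in turn. It was 10102 with array weights (4599 higher, 5503 lower) and 829 when a minimum fold was tested (558 higher, 271 lower). Median centring shifted the median difference by -0.1 and gave 2555 higher and 4392 lower (36.8% higher against 46.4%), and cyclic loess gave 3446 and 3153. With the replicate number as a block the count was 7206 over the cultured samples and 6235 over the groups compared. Between GFP- and GFP+, the count of 1142 was 2945 with array weights, 459 in a fit of only the groups compared, 2130 with the replicate block in those groups, 31 with a minimum fold, and 653 to 1111 with each sample left out. Between GFP- and day 0, it was 1746 with a minimum fold. Why these counts moved was not tested, except that a minimum fold asks for more than a difference from 0.

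Among the 362 genes named without the cell type markers, 247 passed the threshold against day 5. Of these 247, 134 kept call and direction in every alternative that tested them, 26 lost the call in one other than the minimum fold, and 0 reversed. The number of arrays, 3 a group, limits the precision, and the files give no signal over background.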
